A study of Rattus norvegicus with 24 samples.

Results

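The leukocyte beta2 integrins and their best known ligand were followed in rat lung RNA as 6 genes of the 30043 in the count table. They are the alpha subunits Itgam, Itgax, Itgal and Itgad, the shared beta subunit Itgb2, and Icam1. The set was chosen by family membership and by measured values, with fits of these 24 libraries already known, so every level and fold change of the 6 genes below describes them and is no independent evidence for a response. All 6 were matched by symbol and NCBI gene identifier (Itgam 25021, Itgax 499271, Itgal 308995, Itgad 64350, Itgb2 309684, Icam1 25464), and all 6 passed the filter on low counts.

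Beta2 integrins are heterodimers on white blood cells, in which CD18, the product of Itgb2, pairs with CD11b (Itgam), CD11c (Itgax), CD11a (Itgal) or CD11d (Itgad). They let leukocytes hold to the vessel wall, cross it, and take up particles coated with complement, and CD11a with CD18 binds ICAM-1, an immunoglobulin-family protein that endothelium and epithelium display and that inflammatory signals are known to raise. In lung, CD11b is typical of neutrophils, monocytes and recruited macrophages, CD11c of alveolar macrophages and dendritic cells, and CD11a of lymphocytes and most other leukocytes.

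The libraries came from lung pieces of male Fischer 344 rats, bought at 3 months of age, with 6 animals in each of 4 groups and 29 weeks of whole-body exposure. The air group breathed air throughout. The silica group received Min-U-Sil5 crystalline silica, a dust that injures the lung, at 15 mg/m3 for 6 hours a day on 5 days of week 3, and air otherwise. The smoke group received cigarette smoke for 3 hours a day on 2 days a week, at 40 mg/m3 in week 1 and 80 mg/m3 later, with air in week 3. The combined group received the same silica in week 3 and smoke in the other weeks, at 45 mg/m3 in week 1 and 80 mg/m3 later. The design crosses the exposures, and the question is how the lung responds to each and to both. Replicate numbers follow the order of deposit and pair nothing. Levels are given in CPM, the count divided by the library total in units of 1e6 after scaling by the trimmed mean of M values (TMM).

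Depth was uneven, and several libraries stood apart. Smoke 2 held 21629 counts, silica 4 held 280484 and the others 1084815 to 4687805. In smoke 2, haemoglobin genes took 53.7% of the counts against 0.240% to 1.48% elsewhere, 1 count was worth 53.0 CPM, and the 6 genes had 0 to 5 counts each. The libraries labelled silica 1 and smoke 1 went against their labels in Itgam. Silica 1 stood at 31.5 CPM of Itgam against 66.2 CPM or more in the rest of its group, and smoke 1 stood at 54.6 CPM where the 4 other smoke libraries of normal depth had at most 27.4 CPM. Air 6 also stood apart, with a chi-square of 14.7 to 24.4 per degree of freedom against the other air libraries. No pair within a group that held neither smoke 2 nor air 6 was above 10.5. Its voom weight, the precision that fit gives a library, was 0.269, against 0.251 in smoke 2 and 0.520 or more in the others. The calls of members in the combined group against air and in silica against air were the same without air 6. Results are given with and without silica 1, smoke 1 and smoke 2, called the 3 libraries below. They were chosen with measured values known, and silica 1 and smoke 1 depart from their groups in a member. Leaving them out therefore widens, by construction, the differences of silica from air and of the combined group from smoke for Itgam and genes that vary with it, and narrows their errors. The other comparisons share the estimate of the spread, so their errors narrow as well. Values without any or all of these libraries are a description that supports no call.

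The promoter stretches of 3 members are shown because RefSeq held a stretch for these only. It held none for Itgal, Itgad and Itgb2, so the stretches do not compare members that were called with members that were not. Itgam and Itgax are direct neighbours on the chromosome in the RefSeq order of genes. Each stretch is the 250 bases before the annotated start in RefSeq (assembly GRCr8), written 5′ to 3′ on the plus strand, which is the genes' own strand, with the motifs found in capitals. Itgam lies at chr1:192089342-192089591, Itgax at chr1:192149799-192150048 and Icam1 at chr8:27829595-27829844. Itgad follows Itgax in the same order of genes.
Itgam: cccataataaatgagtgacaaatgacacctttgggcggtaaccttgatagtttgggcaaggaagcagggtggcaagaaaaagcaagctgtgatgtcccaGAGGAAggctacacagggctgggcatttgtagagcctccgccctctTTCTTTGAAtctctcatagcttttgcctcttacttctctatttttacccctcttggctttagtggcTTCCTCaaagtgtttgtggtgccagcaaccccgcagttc
Itgax: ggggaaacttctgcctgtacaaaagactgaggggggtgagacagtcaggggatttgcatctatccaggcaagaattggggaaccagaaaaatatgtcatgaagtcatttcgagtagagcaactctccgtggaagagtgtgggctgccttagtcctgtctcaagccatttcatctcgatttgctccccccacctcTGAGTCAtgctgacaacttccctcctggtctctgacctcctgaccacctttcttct
Icam1: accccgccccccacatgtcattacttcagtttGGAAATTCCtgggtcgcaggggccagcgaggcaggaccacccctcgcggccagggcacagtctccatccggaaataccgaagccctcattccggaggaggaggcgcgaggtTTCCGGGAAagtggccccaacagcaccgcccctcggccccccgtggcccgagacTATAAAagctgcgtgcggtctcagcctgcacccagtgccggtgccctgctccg

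Motifs were searched on both strands, with positions counted back from the start (-1 is the base before it). The Itgam stretch holds GAGGAA, the core bound by the myeloid factor PU.1, which is known to act on the human gene, at -151 and, on the minus strand, at -39. That motif occurs in 23.3% of 33469 promoter stretches of this length. The Itgax stretch holds TGANTCA, the motif of AP-1 factors, at -56 (6.34% of stretches). The Icam1 stretch holds GGAAATTCC, the NF-kB core known from the human gene, at -218 (0.287% of stretches), and TATAAA at -53 (12.9%). TTCNNNGAA, the palindrome bound by STAT factors, stands at -105 in Itgam and at -107 in Icam1 (7.67% of stretches). None of these motifs overlapped another in the 3 stretches. The matches describe letters in these windows and no binding was measured.

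Itgam, the alpha subunit of the complement receptor CD11b/CD18, had the lowest, median and highest levels of 24.2, 27.8 and 34.2 CPM in air. In silica they were 31.5, 69.7 and 82.4 CPM. In smoke they were 22.5, 26.9 and 54.6 CPM, and in the combined group 81.8, 96.1 and 113.6 CPM. All 6 combined libraries lay above every air and every smoke library, and 5 of them lay above the highest silica library. The silica libraries other than silica 1 lay above all air libraries. Means ± SD (n = 6 each) were 28.4 ± 3.95 CPM in air, 65.8 ± 17.8 in silica, 34.6 ± 14.9 in smoke and 97.4 ± 12.0 in the combined group. The order of means was therefore combined, silica, smoke and air, and smoke and air did not differ beyond their spread. Without the 3 libraries the silica mean was 72.7 ± 6.45 CPM (n = 5) and the smoke mean 25.1 ± 2.24 CPM (n = 4), which put smoke below air, still within the spread. The fitted difference of the combined group from air was 1.79 ± 0.18 (log2 fold change ± SE here and below), a 3.46-fold higher level (edgeR adjusted p = 1.15e-07). Silica stood 1.19 ± 0.19 above air, or 2.28-fold (edgeR adjusted p = 6.08e-04), and 1.34 ± 0.11 without the 3 libraries.

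Itgax, the alpha subunit of CD11c/CD18, had 39.9, 49.9 and 54.7 CPM as its lowest, median and highest levels in air. They were 42.5, 78.5 and 102.0 CPM in silica. They were 40.7, 51.4 and 105.9 CPM in smoke, and 89.3, 102.6 and 111.7 CPM in the combined group. The combined and air libraries did not overlap. Silica spread widely, with 4 libraries above the highest air library and silica 1 and silica 4 within its range. Both high smoke values were smoke 1 at 105.8 CPM and smoke 2 at 105.9 CPM, the latter from 2 counts, and the other 4 smoke libraries had 40.7 to 55.7 CPM. Means ± SD were 49.7 ± 5.32 CPM in air, 74.0 ± 24.7 in silica, 66.3 ± 31.1 in smoke and 100.3 ± 8.88 in the combined group (n = 6 each), so that silica and smoke, and smoke and air, were neighbours within their spread. Without the 3 libraries the smoke mean was 46.5 ± 6.72 CPM (n = 4) and the silica mean 80.4 ± 21.5 CPM (n = 5). The combined group stood 1.00 ± 0.18 above air, or 1.99-fold (edgeR adjusted p = 2.69e-04). Silica stood 0.61 ± 0.19 above air (edgeR adjusted p = 0.0702), which did not pass, and passed without silica 1 (0.00735), without smoke 1 (0.0133) and without the 3 libraries (0.74 ± 0.12, 1.11e-04).

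**Figure D1:**
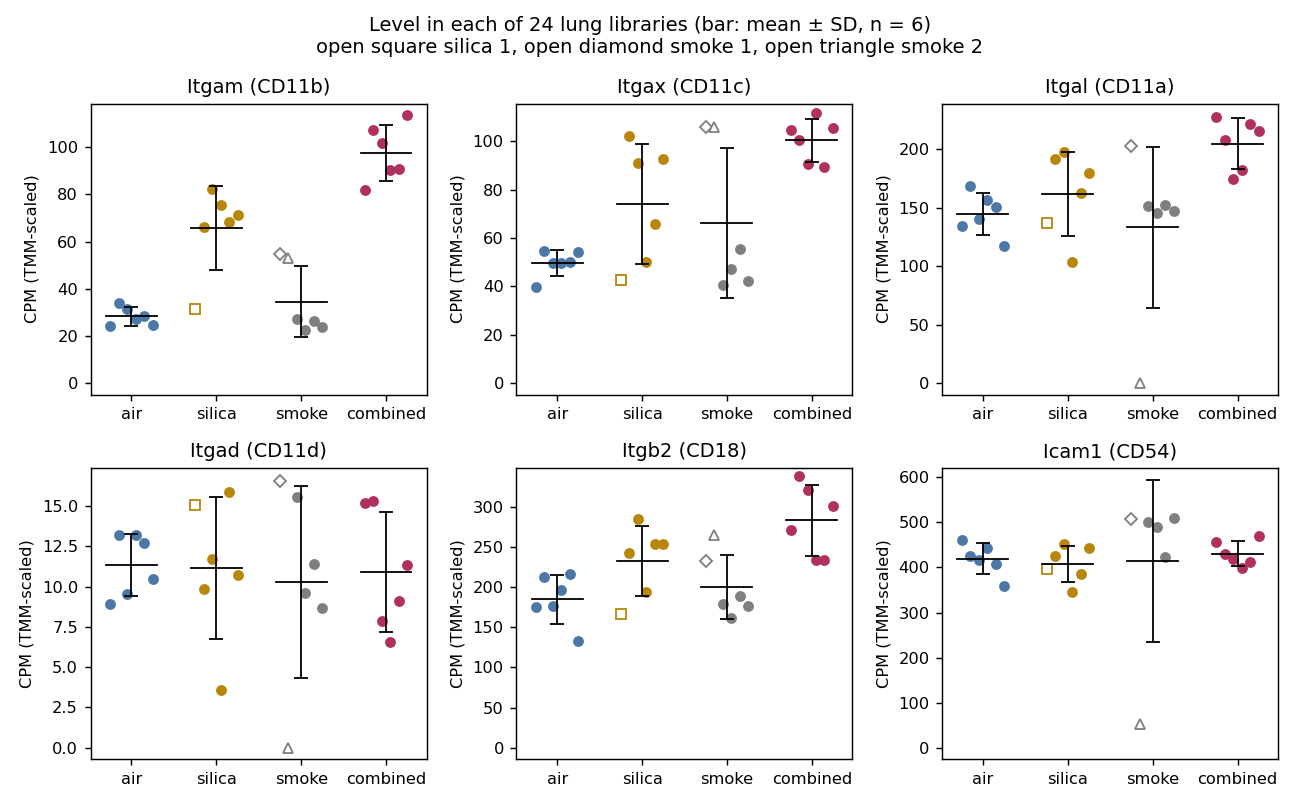
Levels of the 6 genes in CPM (vertical axes) in each of 24 libraries by group, with means and SD as bars (n = 6). For Itgam, Itgax, Itgal and Itgb2 all 6 combined libraries sit above all 6 air libraries, while Itgad and Icam1 overlap between the groups.

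Itgal, the alpha subunit of LFA-1 (CD11a/CD18), ran from 117 to 169 CPM in air with a median of 145 CPM. In silica its lowest, median and highest levels were 104, 171 and 197 CPM. In the combined group they were 175, 212 and 228 CPM. Every combined library lay above every air library, and 4 lay above the highest silica library. In smoke the 5 deep libraries had 145 to 203 CPM, with smoke 1 the highest. Smoke 2 had 0 counts, where 1 count is worth 53.0 CPM. That allows up to 3 counts, which are 139 CPM of its unscaled total and more on the scale of the other levels. Smoke 2 can therefore not be ranked among the smoke libraries. Means ± SD were 144 ± 18.0 CPM in air, 162 ± 35.9 in silica and 205 ± 21.6 in the combined group (n = 6 each), and the smoke mean without smoke 2 was 160 ± 24.3 CPM (n = 5). Air, smoke and silica were neighbours within their spread. The combined group stood 0.51 ± 0.12 above air, or 1.42-fold (edgeR adjusted p = 0.00261), and silica 0.22 ± 0.12 above air (edgeR adjusted p = 0.361).

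Itgad, the alpha subunit of CD11d/CD18, which tissue macrophages of some organs are known to carry, showed no ordering of the groups. Its levels were 8.94 to 13.2 CPM in air, 3.59 to 15.9 CPM in silica and 6.57 to 15.3 CPM in the combined group, and the 5 deep smoke libraries had 8.66 to 16.5 CPM. The lowest silica value was 1 count in the shallow silica 4, and smoke 2 had 0 counts. Means ± SD were 11.3 ± 1.93 CPM in air, 11.1 ± 4.41 in silica, 10.3 ± 5.95 in smoke and 10.9 ± 3.72 in the combined group (n = 6 each). The difference of the combined group from air was -0.01 ± 0.21 (edgeR adjusted p = 0.994), and its SE was the widest of the 6 genes.

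Itgb2, the beta subunit without which none of the 4 alpha subunits reaches the cell surface, had 132, 187 and 216 CPM as its lowest, median and highest levels in air. They were 166, 248 and 284 CPM in silica. They were 161, 184 and 265 CPM in smoke, and 234, 286 and 338 CPM in the combined group. The highest smoke value came from 5 counts in smoke 2. Without smoke 2 the highest was smoke 1 at 232 CPM, and the smoke mean was 187 ± 27.0 CPM (n = 5). All combined libraries lay above all air libraries, and 3 of them, combined 1, 4 and 5, lay within the silica range. Means ± SD were 185 ± 30.8 CPM in air, 232 ± 43.8 in silica, 200 ± 39.8 in smoke and 283 ± 44.0 in the combined group (n = 6 each), so that silica and smoke, and smoke and air, were neighbours within their spread. The combined group stood 0.62 ± 0.13 above air, or 1.54-fold (edgeR adjusted p = 6.42e-04). Silica stood 0.35 ± 0.13 above air (edgeR adjusted p = 0.124), and passed without silica 1 (0.0192) and without the 3 libraries (0.44 ± 0.11, 0.0110).

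Icam1, the ligand, had like levels in air, silica and the combined group. Its lowest, median and highest levels were 360, 421 and 460 CPM in air and 344, 411 and 453 CPM in silica. In the combined group they were 399, 424 and 471 CPM. These 3 groups overlapped throughout. The 5 deep smoke libraries had 422 to 510 CPM, and 4 of them, smoke 1, 3, 4 and 6, lay above the highest air library, while smoke 2 stood at 53.0 CPM from 1 count. Means ± SD were 419 ± 34.6 CPM in air, 408 ± 40.7 in silica and 431 ± 27.3 in the combined group (n = 6 each). The smoke mean was 414 ± 180 CPM (n = 6), and 486 ± 36.3 CPM (n = 5) without smoke 2. Icam1 differed from air by 0.04 ± 0.10 in the combined group (edgeR adjusted p = 0.826), by -0.03 ± 0.10 in silica (0.955) and by 0.18 ± 0.11 in smoke (0.689).

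**Figure D2:**
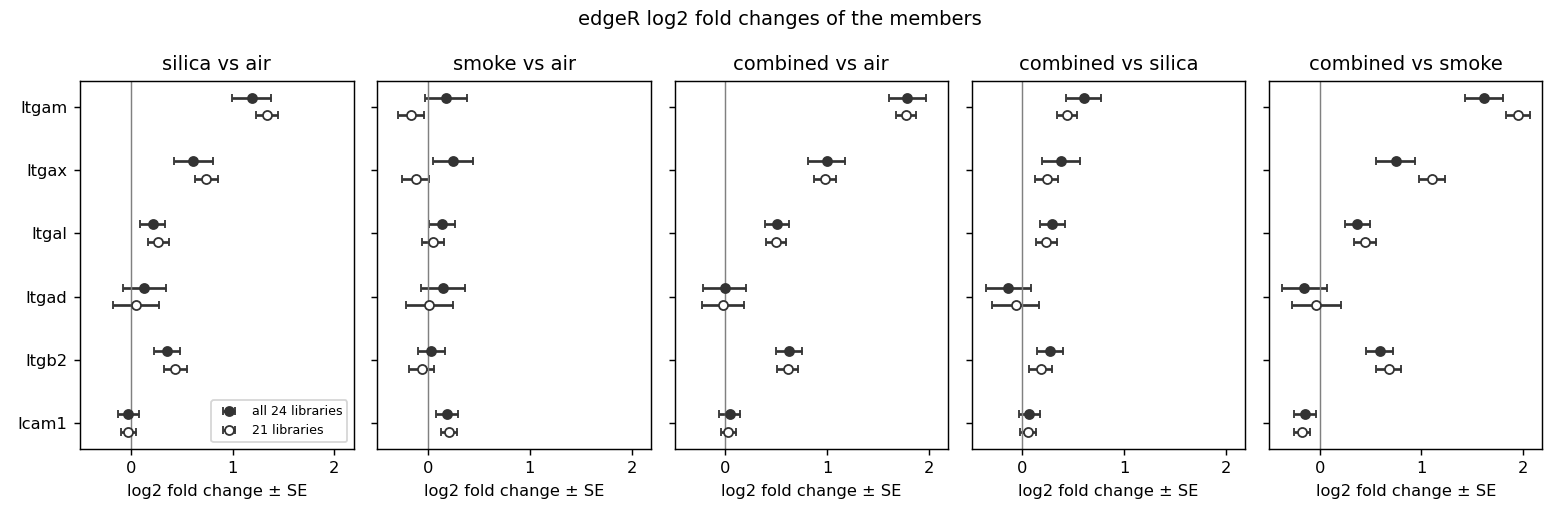
Log2 fold changes with SE (horizontal axes) of the 6 genes in 5 comparisons, from the fit to all 24 libraries (filled) and to 21 libraries without silica 1, smoke 1 and smoke 2 (open). Itgam has the highest value against air in the silica and combined panels, 1.19 and 1.79, and in the smoke panel Itgam, Itgax and Itgb2 move from above 0 to below 0 when the 3 libraries are left out.

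A comparison was called at an adjusted p under 0.05 over all 13322 genes tested. The groups are shared between comparisons, so these are not separate lines of evidence, and nothing is read from the counts against the background, since the choice of members used the same contrasts. In the combined group against air, 4 of the 6 genes (Itgam, Itgax, Itgal, Itgb2) were called higher and 0 lower, beside 11.6% of all genes called higher and 10.8% lower. Their median log2 fold change was 0.57 against -0.009 over all genes. In silica against air 1 of 6 was called higher and 0 lower (2.15% and 1.01% of all genes), with a median of 0.28 against -0.004 over all genes. With the 3 libraries left out, 3 of 6 passed as higher in silica, namely Itgam, Itgax and Itgb2. Over all 13666 genes tested in that fit, 815 passed as higher and 799 as lower. These counts are a description that supports no call.

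In smoke against air edgeR called 0 of 6 (0.0976% of all genes higher, 0.0525% lower), DESeq2 and voom also called 0, and 0 of 6 had an unadjusted p under 0.05. The values were 0.17 for Itgam, 0.25 for Itgax, 0.14 for Itgal, 0.15 for Itgad and 0.03 for Itgb2. Without the 3 libraries Itgam stood at -0.17 ± 0.13, Itgax at -0.12 ± 0.13 and Itgb2 at -0.06 ± 0.12, and without smoke 1 alone these 3 genes stood at -0.17, -0.11 and -0.0554. Itgb2 also turned without air 6 (-0.0515). Icam1 stood at 0.20 ± 0.08 without the 3 libraries (edgeR adjusted p = 0.416).

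In the combined group against smoke 4 of 6 were called higher and 0 lower (7.34% and 5.57% of all genes). Itgam stood 1.62 ± 0.19 higher, or 3.06-fold (edgeR adjusted p = 6.88e-06). Itgax stood 0.75 ± 0.19 higher (edgeR adjusted p = 0.0113) and Itgb2 0.59 ± 0.13 higher (0.00444). Itgal stood 0.37 ± 0.13 higher (edgeR adjusted p = 0.0494), a call that ended without any single one of 15 libraries: air 1, 3, 4 and 5, silica 2, 5 and 6, smoke 3, 4, 5 and 6, and combined 1, 2, 5 and 6 (0.0514 to 0.124). Without the 3 libraries Itgam stood at 1.95 ± 0.12, Itgax at 1.10 ± 0.13, Itgal at 0.45 ± 0.11 and Itgb2 at 0.68 ± 0.12. With all libraries the levels of Itgax, Itgal and Itgb2 overlapped between both groups. Icam1 pointed the other way at -0.14 ± 0.11 (edgeR adjusted p = 0.408).

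In the combined group against silica edgeR called 0 of 6 (0.12% of all genes higher, 0.128% lower), DESeq2 and voom called 0, and 4 of 6 had an unadjusted p under 0.05. Itgam stood 0.60 ± 0.17 higher, or 1.52-fold (edgeR adjusted p = 0.125), Itgax 0.38, Itgal 0.30, Itgb2 0.27, Icam1 0.07 and Itgad -0.14. Itgam passed without smoke 1 (edgeR adjusted p = 0.0457) and without the 3 libraries (0.44 ± 0.10, 0.0471). Smoke 1 belongs to neither group and departs from its own in Itgam, so leaving it out narrows the spread that all comparisons share. These passes therefore support no call, and the difference itself was smaller without the 3 libraries. The interaction, which compares the change under both exposures with the changes under each alone added up on the log2 scale, was called for 0 of 6 (0% of all genes in either direction), and 0 of 6 had an unadjusted p under 0.05. DESeq2 and voom also called 0 of the 6. With voom Itgam stood at 0.57 ± 0.23 (voom unadjusted p = 0.0195, adjusted p = 0.339). Itgam had the highest interaction value at 0.43 ± 0.27 (edgeR adjusted p = 0.757), and it was 0.61 ± 0.16 (0.210) without the 3 libraries.

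The counts of the 4 alpha subunits divided differently between the groups. Shares are of counts, not molecules, since no transcript lengths were used, and they are compared between groups only. Itgam took 12.1 ± 0.92% of the alpha counts in air (n = 6), 21.3 ± 6.14% in silica (n = 6), 11.5 ± 1.69% in smoke (n = 5, without smoke 2) and 23.6 ± 2.86% in the combined group (n = 6). The lowest combined share, 19.1%, exceeded the highest air share, 13.7%. The Itgal share ran the other way, at 61.7 ± 2.76% in air, 51.9 ± 5.08% in silica, 62.1 ± 5.11% in smoke and 49.5 ± 3.22% in the combined group. Its highest combined share, 54.0%, lay below its lowest air share, 56.7%, although Itgal itself was higher in the combined group. Itgad had a share of 4.83 ± 0.51% in air and 2.61 ± 0.78% in the combined group, and Itgax had 21.4 ± 2.52% in air and 24.3 ± 2.30% in the combined group. The libraries behind these shares held 344 to 1179 alpha counts, except silica 4 with 65, whose Itgam share of 32.3% has an exact 95% binomial interval of 21.2% to 45.1%, which covers counting error only. In silica 1 the Itgam share was 14.0%, next to air.

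**Figure D3:**
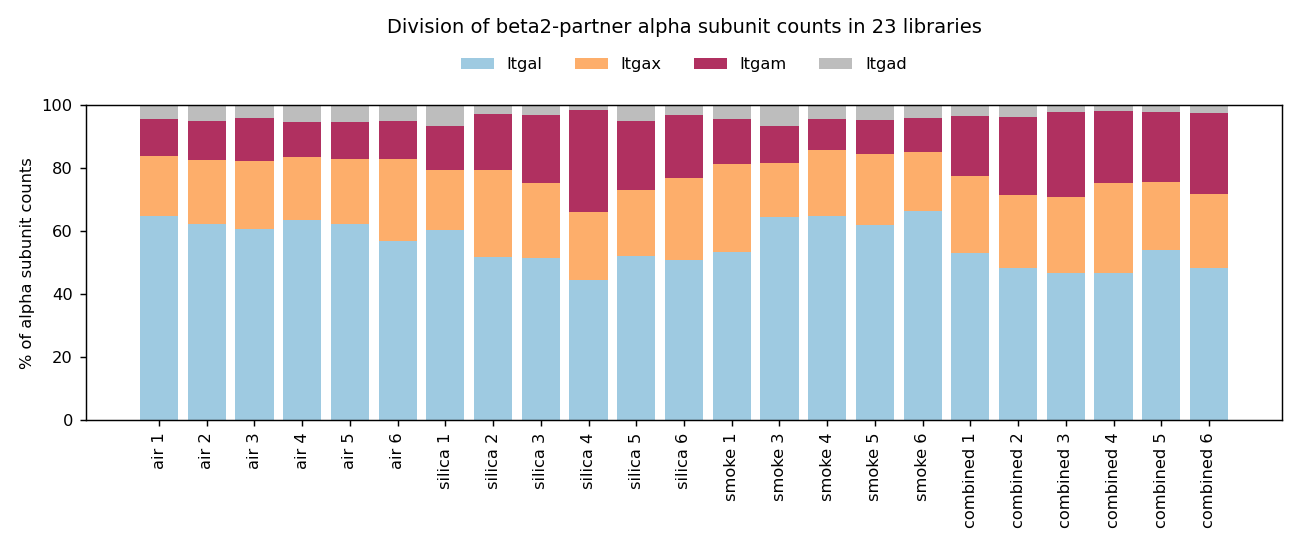
Share of each alpha subunit in the summed counts of Itgam, Itgax, Itgal and Itgad (vertical axis, percent) in 23 libraries, with smoke 2 left out for its 3 alpha counts. The Itgam band is at most 13.7% in air and 19.1% to 27.1% in the combined group, and the Itgal band is narrower there.

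Relative to the beta subunit, Itgam had 0.156 ± 0.0230 counts per count of Itgb2 in air (n = 6), 0.282 ± 0.0636 in silica (n = 6), 0.161 ± 0.0419 in smoke (n = 5, without smoke 2) and 0.348 ± 0.0397 in the combined group (n = 6). The combined libraries ran from 0.302 to 0.387 and the air libraries from 0.132 to 0.186, with no overlap. The 4 alpha subunits summed to 1.28 ± 0.151 counts per count of Itgb2 in air and 1.49 ± 0.228 in the combined group, which overlapped. Icam1 had 2.31 ± 0.329 counts per count of Itgb2 in air, 1.797 ± 0.309 in silica, 2.63 ± 0.393 in smoke and 1.55 ± 0.213 in the combined group, where the highest library, at 1.76, lay below the lowest air library, at 1.89. Against Ptprc, which encodes the leukocyte surface protein CD45, Itgam had 0.0786 ± 0.00568 counts per count in air and 0.236 ± 0.0418 in the combined group, and Itgb2 stood at 0.511 ± 0.0578 and 0.685 ± 0.136. Itgb2 per Ptprc overlapped between these groups, with the highest air library at 0.571 and the lowest combined library at 0.547. Ptprc itself was not called in that comparison, where 5 of 7 pan-leukocyte genes were called higher, so the ratios to Ptprc depend on this choice of denominator. These ratios are descriptions with no test. In RNA of whole lung pieces, more cells of a type and more RNA per cell cannot be told apart.

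**Figure D4:**
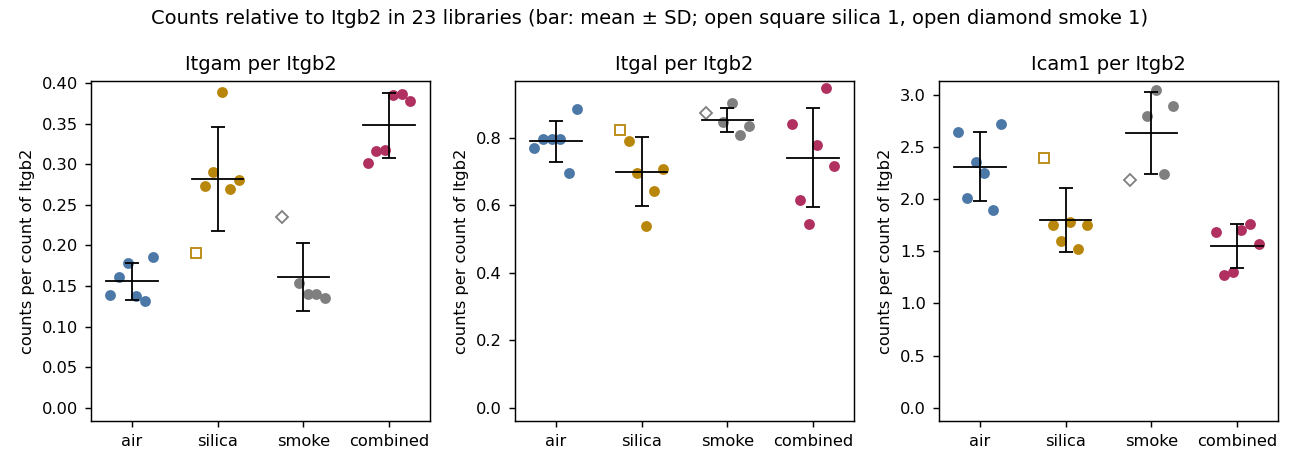
Counts of Itgam, Itgal and Icam1 per count of Itgb2 (vertical axes) in 23 libraries by group, with means and SD as bars. Itgam per Itgb2 is 0.302 to 0.387 in the combined group and 0.132 to 0.186 in air, Icam1 per Itgb2 is lower in the combined group than in air without overlap, and Itgal per Itgb2 overlaps between all groups.

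The rest of the integrin family had calls in both directions. Of 21 other subunits 20 were tested, and in the combined group against air 3 were called higher, 4 lower and 13 neither, with a median of -0.11. Itgb8, whose product pairs with the alpha V subunit and activates TGF-beta, was higher by 1.26 ± 0.19 (edgeR adjusted p = 2.91e-05). Itga9 was lower, at -0.69 ± 0.11 (edgeR adjusted p = 4.77e-05), as was Itgb5, at -0.39 ± 0.12 (0.0163). Itgb1, the beta subunit of most matrix receptors and the most abundant of those not called, stood at -0.08 ± 0.10. Itgb8 was also the sole other subunit called in silica against air, at 1.26 ± 0.20 (edgeR adjusted p = 5.55e-04). Without the 3 libraries Itgb8 was called higher and 4 were called lower in that comparison, namely Itga1, Itga8, Itga9 and Itgb5. Of the remaining calls, that of Itgae (0.79 ± 0.25) ended without combined 2, that of Itgb6 (0.33 ± 0.11) without air 1, 3 or 4 or combined 5 or 6, that of Itga1 (-0.36 ± 0.12) without air 3 or combined 2, 3 or 6, and that of Itga8 (-0.38 ± 0.13) without air 1 or 6, smoke 3 or combined 1, 2, 3, 5 or 6. These 4 genes are named because the figure of the family shows them, chosen after their values were seen.

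**Figure D5:**
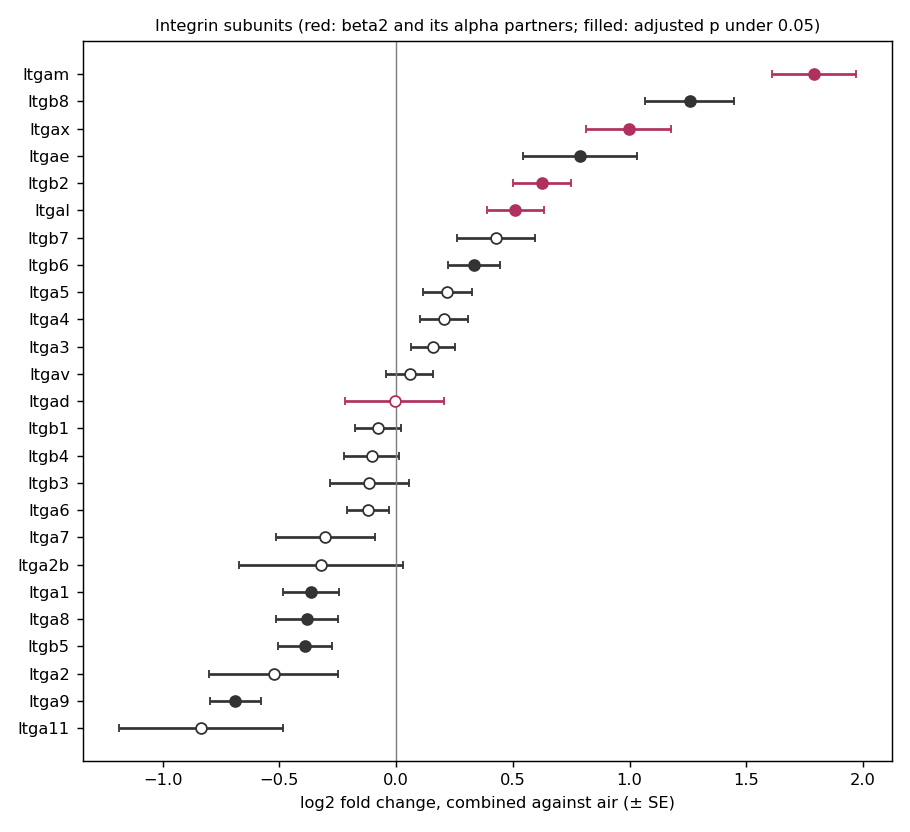
Log2 fold change with SE of the combined group against air (horizontal axis) for Itgb2 and its 4 alpha partners (red) and the 20 other integrin subunits tested (black), filled where called. Itgam stands highest at 1.79 and Itgb8 next at 1.26, and the called genes below 0 are Itga9, Itgb5, Itga8 and Itga1.

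Of 12 other immunoglobulin-family adhesion molecules 8 were tested, and in the combined group against air 5 were lower, 0 higher, with a median of -0.33. Icam2, a ligand of CD11a/CD18 on endothelium, was lower, at -0.38 ± 0.10 (edgeR adjusted p = 0.00705). Pecam1, a junction protein of endothelium that leukocytes meet as they cross, was lower, at -0.41 ± 0.09 (edgeR adjusted p = 0.00121), as was Esam, another endothelial junction protein, at -0.49 ± 0.10 (5.39e-04). Vcam1, which binds integrins of the beta1 family, stood at -0.22 ± 0.18 (0.423). Endothelial markers were lower in the same comparison (5 of 7 lower, 0 higher, median -0.48), with summed levels of 3391 to 4158 CPM in air and 2386 to 2727 CPM in the combined group, and their part in these values was not tested.

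Of 7 soluble and other ligands of beta2 integrins 5 were tested, and 3 were higher in the combined group, 0 lower, with a median of 0.97. C3, the complement protein whose fragment iC3b is the ligand of CD11b/CD18, was higher by 2.06 ± 0.28 (edgeR adjusted p = 8.90e-06), from 561 ± 146 CPM in air to 2342 ± 176 CPM (SD, n = 6 each). Silica alone stood at 1.53 ± 0.28 for C3 (edgeR adjusted p = 0.00276). Fgg, a chain of fibrinogen, was higher by 0.97 ± 0.15 (edgeR adjusted p = 3.73e-05) and Plaur, the urokinase receptor, which associates with CD11b/CD18, by 1.14 ± 0.25 (0.00120). Fn1, fibronectin, stood at 0.10 ± 0.13.

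Of 19 genes of integrin activation and signalling, all tested, 10 were higher and 1 lower in the combined group, with a median of 0.29. Fgr, a kinase that acts in integrin signalling of myeloid cells, was higher by 0.98 ± 0.12 (edgeR adjusted p = 1.66e-06). Vav1, an exchange factor that acts downstream of integrins in leukocytes, was higher by 0.89 ± 0.13 (edgeR adjusted p = 2.04e-05). Tln1, talin, which activates integrins in most cell types, stood at -0.07 ± 0.12. In silica alone 2 of the 19 were called higher and 0 lower, with Fgr at 0.53 ± 0.12 (edgeR adjusted p = 0.0172), and 9 were called higher and 1 lower without the 3 libraries.

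Genes of the selectin step, by which leukocytes roll before integrins hold them, were higher in 3 of 7 tested (of 9 listed) and lower in 0 in the combined group, with a median of 0.51. St3gal4 and Fut4, enzymes that build selectin ligands, stood at 0.51 ± 0.10 (edgeR adjusted p = 3.29e-04) and 0.66 ± 0.15 (0.00221). Selplg, the selectin ligand PSGL-1 of leukocytes, stood at 0.76 ± 0.16 (edgeR adjusted p = 8.81e-04), and B4galt1 at 0.03 ± 0.10. Of 10 genes of the NF-kB pathway and inducers of Icam1, 8 were tested, with 3 higher, 1 lower (Nfkbia, named as the sole call in that direction) and a median of 0.18. Birc3, an NF-kB target, was higher by 0.88 ± 0.16 (edgeR adjusted p = 2.60e-04), Il1b, a cytokine known to raise Icam1, by 0.80 ± 0.17 (0.00117), and Nfkb2 by 0.38 ± 0.12 (0.0174), the last not without combined 6. Nfkb1 stood at 0.14 ± 0.08.

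Markers of leukocytes were called higher in part. Of 7 pan-leukocyte genes 5 were higher in the combined group and 0 lower (median 0.51), and their summed levels were 1258 to 1674 CPM in air, 1534 to 2210 CPM in silica, 1346 to 1919 CPM in smoke and 2024 to 2327 CPM in the combined group. Lcp1 stood at 0.87 ± 0.14, Cd53 at 0.82 ± 0.12 and Laptm5 at 0.71 ± 0.15 (edgeR adjusted p = 4.40e-05, 2.61e-05 and 9.27e-04). Ptprc stood at 0.21 ± 0.09 (edgeR adjusted p = 0.0805) and was called without smoke 2, without combined 3 and without the 3 libraries (0.0306). The part of leukocyte number in the levels of the 6 genes was not tested.

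Of 10 neutrophil markers 5 were tested, with 4 higher and 0 lower in the combined group (median 0.80). S100a9 and S100a8, abundant in neutrophils and monocytes, stood at 3.35 ± 0.40 (edgeR adjusted p = 1.79e-06) and 2.29 ± 0.30 (5.35e-06), Csf3r, the receptor of a neutrophil growth factor, at 0.80 ± 0.17 (7.69e-04), and Mmp8 at 0.17 ± 0.30. The summed levels of the list were 86.2 to 156 CPM in air, 128 to 674 CPM in silica (471 CPM or more without silica 1), 134 to 635 CPM in smoke (at most 198 CPM without smoke 1 and smoke 2) and 385 to 840 CPM in the combined group. Mpo, a granule enzyme made in immature neutrophils, had 0 counts in all silica, smoke and combined libraries, and Elane had 0 in all silica libraries.

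Of 9 macrophage markers 8 were tested, with 3 higher and 0 lower (median 0.26). Siglec1, Msr1 and Cd68 stood at 1.47 ± 0.18, 1.27 ± 0.22 and 1.01 ± 0.22 (edgeR adjusted p = 1.66e-06, 1.66e-04 and 0.00161), and Lpl, abundant in alveolar macrophages, at 0.29 ± 0.16. Their summed levels were 712 to 1500 CPM in air, 1099 to 1585 CPM in silica, 265 to 1328 CPM in smoke, where smoke 2 was the lowest, and 1407 to 1550 CPM in the combined group, and Marco had 0 counts in all air libraries. Of 6 dendritic cell markers tested, of 7 listed, 2 were higher (Clec9a 0.95 ± 0.25, Cd83 0.72 ± 0.18), and Zbtb46 stood at -0.10 ± 0.12.

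Of 9 T and NK cell markers, all tested, 2 were higher and 0 lower (median 0.22), namely Cd5 (0.83 ± 0.24), not without combined 2, and Cd2 (0.62 ± 0.22), not without air 1, 2, 3, 5 or 6 or combined 2, 4, 5 or 6. Prf1 stood at -0.10 ± 0.15. Their summed levels were 85.4 to 134 CPM in air and 87.8 to 128 CPM in the combined group. Of 6 B cell markers 4 were tested and 0 called by edgeR (median -0.28), with Cd22 at -0.18 ± 0.19 and summed levels of 25.4 to 65.8 CPM in air and 20.7 to 47.4 CPM in the combined group. Of 6 alveolar type 1 markers 4 were lower and 1 higher (median -0.37), of 7 type 2 markers 3 were higher (median 0.28), and of 5 erythroid genes 0 were called (median -0.06). Without the 3 libraries these lists held as many calls in each direction in the combined group against air, except that 1 more was called among the pan-leukocyte (Ptprc higher), ligand (Ager lower), NF-kB (Rela lower), endothelial (Kdr lower) and erythroid genes (Ahsp lower), and 5 type 2 markers were higher.

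Across the 23 libraries other than smoke 2, the genes whose log2(CPM + 1) followed each member most closely were ranked among 12467 tested genes averaging 5 CPM or more. Itgam was nearest to Lilrb4, an inhibitory receptor of myeloid cells (r = 0.98, and 0.88 within groups), then Zfand2a (0.97) and Cfb, complement factor B (0.97). Itgb2 was nearest to Atp6v1b2, a subunit of the lysosomal proton pump (0.95), Prdx5 (0.95) and Lgmn, a lysosomal protease (0.95). Itgax was nearest to Lsp1, a leukocyte actin-binding protein (0.94), Clic1 (0.93) and Hmox1, haem oxygenase (0.91), and Itgal to Kcnab2 (0.91), Hmox1 (0.90) and Fuca1 (0.90). Itgad was nearest to Prf1, the perforin of cytotoxic lymphocytes (0.82), R3hcc1 (0.79) and Itgb3 (0.79). For Itgad the Spearman rank correlations with these genes were lower, at 0.68, 0.61 and 0.495. Icam1 was nearest to Pip5k1c (0.84), Tspan15 (0.80) and Rnpepl1 (0.79). Among the members, Itgam correlated at 0.87 with Itgb2 and at 0.86 with Itgax, at 0.65 with Itgal, at -0.14 with Itgad and at -0.17 with Icam1. Within groups, with group means removed, Icam1 stood at 0.68 with Itgal and 0.17 with Itgam. These correlations are over libraries that share group and depth differences, and are descriptions without a test. The values within groups keep silica 1 and smoke 1, which depart from their groups in Itgam. They can therefore still hold differences like those between groups.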

How the data were processed

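Lung RNA of 24 rats was sequenced after removal of ribosomal RNA with a kit that keeps strand, per the labels' protocols. The authors deposited raw integer counts of reads by gene. HTSeq 0.11.2, HISAT2 2.1.0, Trimmomatic 0.35, SAMtools 1.8, bcl2fastq 2.19 and Cufflinks are named per the submitters' processing notes. Build, annotation and the strand setting of counting are not stated there, so reads shared between members of the integrin family, or with genes overlapping them, cannot be told apart. Removing 26 repeated lines left 30043 genes. RefSeq (GRCr8) gave names, gene order and promoter stretches, which it held for 3 of the 6 members.

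Counts were fitted in R 4.3.3 with edgeR 4.0.16: filterByExpr with a minimum count of 10 (13322 genes), TMM scaling, 1 quasi-likelihood model over 4 group means with 20 residual degrees of freedom, two-sided tests, Benjamini-Hochberg adjustment over all genes. The SE is the absolute log2 fold change over the square root of F. Alternatives were DESeq2 1.42.0, limma 3.58.1 (voom with quality weights), RLE scaling, no filter, the 12 libraries of a comparison, 21 libraries, and leaving out each library. The fit was run on simulated data with planted changes larger than those of Itgal and Itgb2. No simulated library was set to depart from its group. That run therefore does not bear on calls of smaller changes, or on those that depend on silica 1 or smoke 1. Depth ran from 21629 to 4687805 counts, median 2335358, and counting precision follows it. Within groups no pair of libraries agreed within sampling noise (lowest chi-square per degree of freedom 1.8). Replicates are separate animals per the labels.

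The members and the 16 lists beside them were chosen with earlier results of these data known. Of each list, the text names in the combined group against air up to 3 called genes with the smallest p and the most abundant one not called, and elsewhere a sole or singled-out gene. The values of 1 gene that this rule takes are not reported here.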

Additional observations from a re-analysis of the deposited data

Results flagged for a closer look

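In 24 combinations of gene and group, 4 had a lowest library far from the other 5. Chance alone flags about 1 in 20 such groups. Itgam in silica 1 stood at 31.5 CPM, inside the air range, while the 5 other silica libraries had 66.2 CPM or more. Itgax in air 1 stood at 39.9 CPM, with the other air libraries at 49.7 to 54.7 CPM. Itgal had 0 counts in smoke 2, and Icam1 stood at 53.0 CPM there from 1 count. Both of these values come from the library of 21629 counts.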

How the results depend on the processing

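The calls of Itgam, Itgax, Itgal and Itgb2 in the combined group against air held in every alternative fit and in all 24 fits that left out 1 library. The number of members called higher in silica against air was 1, and 2 with voom, 3 without silica 1, smoke 1 and smoke 2, and 1 to 3 when single libraries were left out. For the combined group against silica it was 0, 1 without those 3, and 0 to 1 when single libraries were left out. The difference of Itgal between the combined and smoke groups was 0.36 with RLE scaling (edgeR adjusted p = 0.0585), 0.37 without the filter (0.0620) and 0.36 with DESeq2 (0.101), none of which passed, and 0.34 to 0.48 when single libraries were left out. Signs turned for values near 0. In smoke against air Itgam stood at -0.0251 with voom, -0.17 without the 3 libraries and -0.17 to 0.28 with single libraries left out, Itgax at -0.12 and -0.11 to 0.36, and Itgb2 at -0.0686 with voom, -0.0629 without the 3 and -0.0554 to 0.0861. With single libraries left out Icam1 in silica against air ran from -0.0648 to 0.00914, Itgad in the combined group against air from -0.12 to 0.0927, and the interaction of Itgax from -0.00752 to 0.50. The cause was not tested. Over all genes, calls in silica against air were 287 higher and 135 lower, 815 and 799 without the 3 libraries, 577 and 332 with voom, 129 and 48 with DESeq2, and 80 and 11 from 12 libraries only. Left out singly, silica 6, 5, 3 and 2 gave 111 and 16, 113 and 11, 133 and 33, and 145 and 35, and silica 1 gave 716 and 467. The lower count was also 63 without air 6, 71 without silica 4, 89 without air 1 and 223 without air 5. In the combined group against air 1546 were higher and 1441 lower, and 856 and 809 with DESeq2. Against smoke 978 were higher and 742 lower, 1353 and 1398 without the 3, 1765 and 1603 with voom, 441 and 393 with DESeq2. There, 581 were called higher and 324 lower without smoke 3 and 586 and 389 without smoke 4, and the lower count was 441 without smoke 6, 486, 488 and 493 without combined 6, 3 and 2. Against silica 16 were higher and 17 lower, 57 and 59 with voom, and 47 and 53 from 12 libraries only. The counts were 56 and 57 without air 6, and 9 to 31 and 7 to 30 without any other single library. In smoke against air 13 were higher and 7 lower, 28 and 44 with voom, and 3 and 2 from 12 libraries only. Left out singly, air 6 gave 14 and 28, silica 1 gave 25 and 13, and any other 4 to 12 and 2 to 8. Depth limits Itgad and everything in smoke 2. No paired analysis was possible because replicate numbers follow the order of deposit.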
